A study of Drosophila melanogaster with 2 samples.

Results

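Transfer RNA genes were examined for peaks of GFP-tagged CG8388 protein in Drosophila melanogaster embryos. The members are the 290 genes that Ensembl annotates as tRNA on the nuclear chromosome arms of dm6, of 18164 annotated genes on 6 arms. They comprise 22 isotypes and 95 distinct gene sequences, and all 290 have the same coordinates in RefSeq. Another 22 tRNA genes on the mitochondrial genome are not members. Arm 2R holds 98 of them, 3R 79, 3L 48, 2L 41 and X 24, and arm 4 holds none.

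The data are ChIP-seq peak lists, made by sequencing the DNA that precipitates with a protein. All material came from whole embryos 0 to 14 h after laying, of both sexes, from a transgenic line that stably expresses CG8388 with GFP at its C-terminus, and the precipitation used an antibody against GFP. There is a single group of 2 libraries, biological replicates 2 and 3, and no library from untagged embryos was analysed here. Whole embryos mix all cell types and many stages, so a peak may come from any of them.

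A tRNA gene is transcribed by RNA polymerase III from promoter elements that lie inside the transcribed sequence, called the A box and the B box. The factor TFIIIC binds these boxes and places TFIIIB just upstream of the gene, and TFIIIB then recruits the polymerase, which stops at a run of T after the gene. In flies the TFIIIB complex holds Brf, Bdp1 and the TBP-related factor Trf. tRNA genes often lie in clusters and in many identical copies, so reads that fall wholly within a gene can match several places.

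The sequences of 10 tRNA genes or their upstream regions are printed as examples, and a summit listed for a gene need not lie within the printed bases. They were chosen after their values were seen, to stand for each kind of result described here. Every sequence is from the RefSeq copy of Release 6, the assembly of dm6, and is written 5′ to 3′ on the strand of the gene. Capitals mark a match to the looser core of the A box, TNGNNNAG, and of the B box, GTTCNANNC. Where both flanks are shown, 60 bases before and 20 bases after the gene are included.

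The gene at the strongest tRNA peak is tRNA:Tyr-GTA-1-8, shown from chr3R:8669061-8669234 on the minus strand. It is split by a short intron between the boxes.

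tRNA:Tyr-GTA-1-8: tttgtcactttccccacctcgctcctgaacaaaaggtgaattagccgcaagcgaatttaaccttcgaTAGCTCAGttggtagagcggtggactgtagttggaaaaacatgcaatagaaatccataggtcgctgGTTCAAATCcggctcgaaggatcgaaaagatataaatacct

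A thresholded summit 49 bp upstream of its start belongs to tRNA:Pro-TGG-1-2, shown from chr3R:17619901-17620052 on the plus strand. A thresholded summit within 500 bp of both a protein-coding start and a tRNA start belongs to tRNA:Asp-GTC-1-5, shown from chr2L:8541701-8541852 on the plus strand.

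tRNA:Pro-TGG-1-2: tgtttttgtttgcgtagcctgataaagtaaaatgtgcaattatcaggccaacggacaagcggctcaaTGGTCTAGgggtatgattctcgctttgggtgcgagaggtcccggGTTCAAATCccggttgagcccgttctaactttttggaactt
tRNA:Asp-GTC-1-5: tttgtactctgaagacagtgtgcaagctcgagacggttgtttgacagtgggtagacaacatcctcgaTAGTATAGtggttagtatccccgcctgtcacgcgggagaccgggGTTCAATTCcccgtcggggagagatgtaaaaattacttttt

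The next 3 genes contrast a gene listed in replicate 3 and not in replicate 2 (tRNA:Thr-CGT-1-3, chr3R:20891598-20891749, plus strand), one listed in replicate 2 and not in replicate 3 (tRNA:Val-CAC-2-1, chr3R:7451237-7451389, plus strand) and one without a summit in any list (tRNA:Lys-TTT-2-5, chr3R:12131295-12131447, plus strand). All 3 hold both cores, at the same place in the gene to within 1 base.

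tRNA:Thr-CGT-1-3: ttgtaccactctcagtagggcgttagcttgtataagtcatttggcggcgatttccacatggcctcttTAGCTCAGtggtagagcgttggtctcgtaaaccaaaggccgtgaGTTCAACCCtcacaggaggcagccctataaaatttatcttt
tRNA:Val-CAC-2-1: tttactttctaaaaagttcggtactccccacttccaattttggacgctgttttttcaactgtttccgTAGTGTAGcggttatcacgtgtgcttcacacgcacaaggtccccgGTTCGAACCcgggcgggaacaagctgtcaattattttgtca
tRNA:Lys-TTT-2-5: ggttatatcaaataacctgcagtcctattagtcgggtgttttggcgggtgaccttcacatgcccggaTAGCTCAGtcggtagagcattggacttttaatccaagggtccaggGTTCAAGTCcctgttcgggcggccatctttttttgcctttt

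Copies of 1 alanine gene are identical over 73 bp and differ in their flanks. The first line is tRNA:Ala-AGC-2-2 with both flanks, chr3R:17619678-17619830 on the plus strand, whose sequence has no match to the looser B box core. The other lines are the 60 bases before 3 further copies, in which the cores were not marked: tRNA:Ala-AGC-2-8 (chr3R:17646756-17646815, minus strand), tRNA:Ala-AGC-2-10 (chr3R:17668127-17668186, plus strand) and tRNA:Ala-AGC-2-9 (chr3R:17658454-17658513, minus strand).

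tRNA:Ala-AGC-2-2: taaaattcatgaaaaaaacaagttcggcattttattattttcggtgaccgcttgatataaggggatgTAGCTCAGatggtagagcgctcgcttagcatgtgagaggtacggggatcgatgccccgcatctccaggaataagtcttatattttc
tRNA:Ala-AGC-2-8: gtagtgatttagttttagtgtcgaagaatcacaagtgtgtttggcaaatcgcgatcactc
tRNA:Ala-AGC-2-10: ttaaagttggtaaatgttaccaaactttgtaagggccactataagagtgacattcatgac
tRNA:Ala-AGC-2-9: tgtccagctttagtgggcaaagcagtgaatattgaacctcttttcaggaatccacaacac

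Most tRNA genes had a summit close by in the pooled and replicate 3 lists, fewer had one in the replicate 2 list, and few had one in the short list of reproducible peaks. The long lists are those of replicate 2, replicate 3 and the pooled replicates, each of 30000 peaks, and the short list holds the 6075 peaks that passed the authors' threshold on the irreproducible discovery rate (IDR), called thresholded peaks here. A gene was counted where the summit of a peak, its point of highest signal, lay within 500 bp of the gene's 5′ end. In the pooled list 183 of 290 tRNA genes had a summit (63.1%, Wilson 95% interval 57.4 to 68.5), beside 40.9% of all annotated genes and 44.7% of protein-coding genes. In the thresholded list 23 tRNA genes had one (7.93%, interval 5.34 to 11.6), beside 15.3% of all genes and 17.9% of protein-coding genes. The tRNA share was thus above the background in the pooled list and below it in the thresholded list. Intervals cover counting error only, and they treat genes as independent, although the 183 genes shared 156 peaks and the 23 genes shared 19. From replicate 2 without replicate 3, the counts were 106 in its whole list and 10 among an equal number of leading peaks.

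The replicates differed more at tRNA genes than at other genes. In the replicate 2 list 106 tRNA genes had a summit (36.6%, interval 31.2 to 42.2), beside 37.6% of all genes. In the replicate 3 list 211 had one (72.8%, interval 67.4 to 77.6), beside 45.5% of all genes. Replicate 2 was therefore near the background at tRNA genes and replicate 3 above it. The intervals run over the same genes in both lists and do not measure the spread between libraries. The count in replicate 3 was 1.99 times that in replicate 2 for tRNA genes, 1.23 times for protein-coding genes and 1.21 times for all genes.

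**Figure D1:**
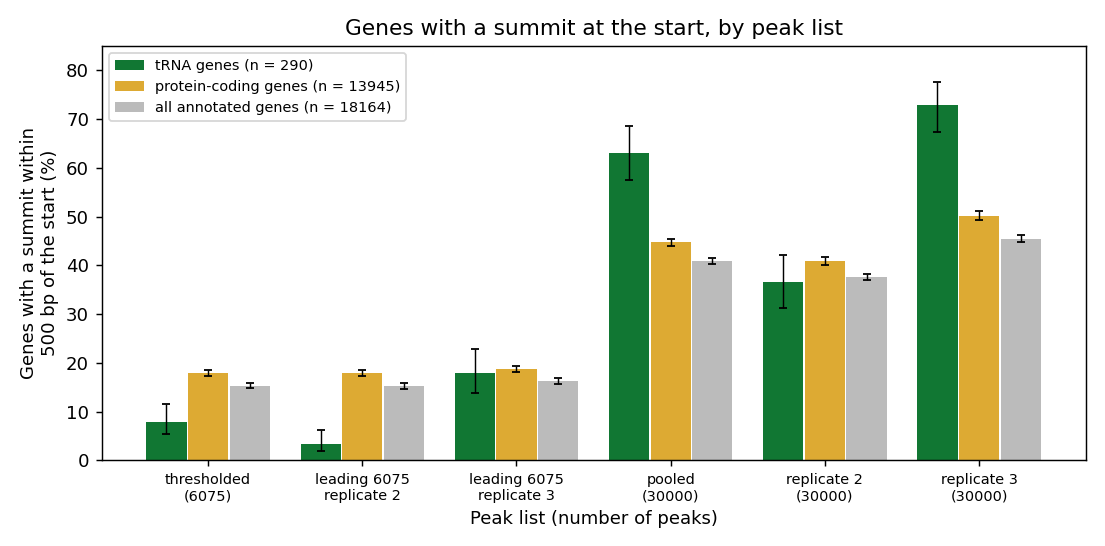
Percent of tRNA, protein-coding and all annotated genes with a summit within 500 bp of the start (y axis) in each peak list (x axis), as bars from 0 with Wilson 95% intervals over genes. The tRNA bar is the tallest of its 3 in the pooled and replicate 3 lists, at 63.1% and 72.8%, and the shortest in the thresholded list, at 7.93%.

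The leading peaks also showed a gap between replicates, in shorter lists that were again of equal length. Among the 6075 peaks of highest signal in each replicate, 10 tRNA genes had a summit in replicate 2 (3.45%, interval 1.88 to 6.23), beside 15.2% of all genes. In replicate 3 the count was 52 (17.9%, interval 13.9 to 22.8), beside 16.3% of all genes. Among leading peaks replicate 2 was therefore below the background at tRNA genes and replicate 3 near it. The ratio of replicate 3 to replicate 2 was 5.2 for tRNA genes and 1.05 for protein-coding genes. All 10 genes of replicate 2 were also among the 52 of replicate 3. Every one of the 23 thresholded genes had a leading summit in replicate 3, and 9 had one in replicate 2.

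Other classes of RNA gene did not show a gap of this size. Of 3261 genes annotated as ncRNA, 925 had a summit in replicate 2 and 931 in replicate 3. Of 269 small nucleolar RNA genes, 40 had one in replicate 2 and 61 in replicate 3, a ratio of 1.52, and of 32 small nuclear RNA genes 10 and 14. For non-coding genes other than tRNA that lie over 500 bp from a protein-coding transcription start site (TSS), the ratio was 0.948 over 3304 genes. For the 258 tRNA genes over 500 bp from a TSS it was 1.92. The difference between these ratios was not tested, since 2 libraries of 1 group leave no replicate of the contrast.

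Gene by gene, 91 tRNA genes had a summit in both replicate lists, 120 in replicate 3 alone, 15 in replicate 2 alone and 64 in neither. Thus 85.8% of the replicate 2 genes and 43.1% of the replicate 3 genes were shared. Peaks were ranked within each list by the authors' signal value, with rank 1 the strongest. Of the 91 shared genes, 72 had the better rank in replicate 3 (79.1%) and 19 in replicate 2, with median ranks of 8787 and 15908. Protein-coding genes listed in both replicates were nearly even, with 2361 of 4770 better ranked in replicate 3 (49.5%) and median ranks of 6178 and 6006.

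**Figure D2:**
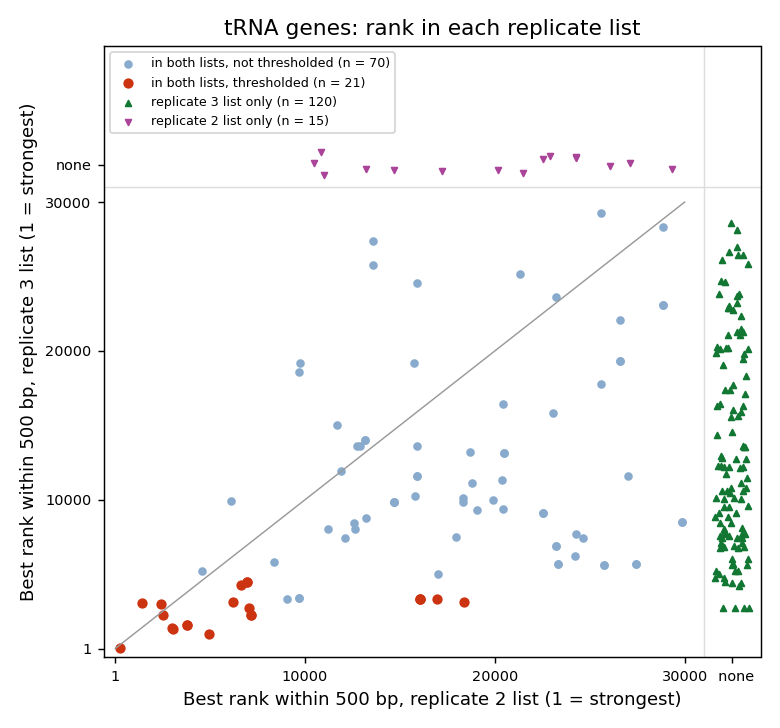
Best rank of a summit within 500 bp of each tRNA gene in the replicate 2 list (x axis) and the replicate 3 list (y axis), where 1 is the strongest of 30000 peaks and the line marks equal ranks. Genes absent from a list stand in the strip marked none, with 120 triangles at the right and 15 at the top, and 72 of the 91 genes in both lists lie below the line.

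Genes whose best rank differed most between the lists show the range, although the best-ranked summits in the 2 lists need not be the same peak. The gene tRNA:Leu-CAG-1-6 ranked 29884 in replicate 2 and 8512 in replicate 3, with summits 41 and 45 bp after its start. Its neighbour tRNA:Leu-CAG-1-5 shares those peaks. The isoleucine genes tRNA:Ile-AAT-1-5 and tRNA:Ile-AAT-1-6 share a peak of rank 27425 in replicate 2 and rank 5684 and 5673 in replicate 3. In the other direction, tRNA:Ala-AGC-2-5 ranked 13559 in replicate 2 and 27417 in replicate 3, with summits 248 and 75 bp upstream of its start. The elongator and initiator methionine tRNAs read the same codon but serve different steps of translation. The initiator gene tRNA:iMet-CAT-1-4 ranked 9756 in replicate 2 and 19212 in replicate 3. Its best-ranked summit lay 431 bp after the start in replicate 2 and 299 bp upstream in replicate 3, so these are different peaks. Ranks that were better in replicate 2 lay at 9690 or beyond among the 5 genes that differed most that way, so none of these genes had a leading peak in either list.

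The position of the summits also differed by replicate. In replicate 3, summits piled up at the tRNA start: the 100 bp just before the start held 22.4 summits per 100 genes and the 100 bp after it 15.9, against 5.86 in the bin from 1000 to 900 bp upstream. Replicate 2 had 3.1 and 4.83 in those same bins and 4.83 in the far upstream bin, so it had no maximum at the start. Its highest bin lay 300 to 200 bp upstream, with 24 summits or 8.28 per 100 genes. The pooled list had 14.8 and 11.4. At protein-coding starts both replicates had a maximum just upstream, of 12.2 summits per 100 genes in replicate 2 (200 to 100 bp upstream) and 14.3 in replicate 3 (100 bp to the start).

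**Figure D3:**
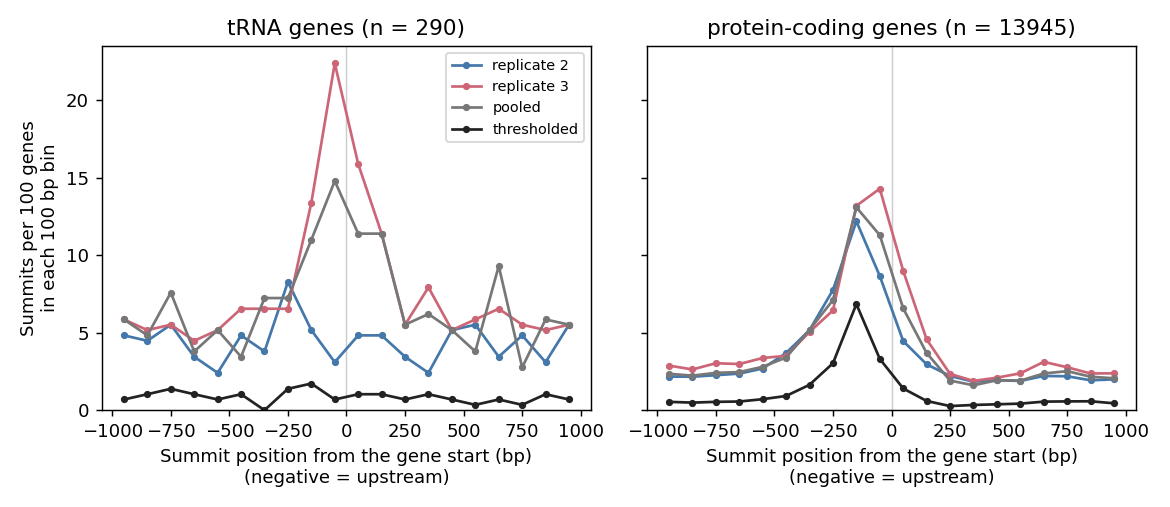
Summits per 100 genes in each 100 bp bin (y axis) against distance from the gene start (x axis, bp, negative is upstream) at tRNA genes (left) and protein-coding genes (right), with 1 line per peak list. At tRNA genes the replicate 3 line reaches 22.4 just upstream of the start and the replicate 2 line stays low there, at 3.1, while at protein-coding genes both replicate lines have a maximum near the start.

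Counted per gene, 113 tRNA genes had a replicate 3 summit within 100 bp of the start and 23 had a replicate 2 summit there, a ratio of 4.91. At protein-coding genes the counts were 3261 and 1830, a ratio of 1.78. Within this narrower window 39.0% of tRNA genes were listed in replicate 3 beside 20.1% of all genes, and 7.93% in replicate 2 beside 11.5%. The nearest summits in replicate 3 had a median position of 33 bp upstream, with the middle of their range from 122 bp upstream to 74 bp downstream. The 189 tRNA genes that lie over 1500 bp from any protein-coding TSS had 19.0 summits per 100 genes just before the start in replicate 3 and 3.7 in replicate 2, where the bin 300 to 200 bp upstream held 10.6. Sonicated fragments of 200 to 800 bp, the size range the labels give, are several times longer than a tRNA gene, so a summit cannot place the protein on 1 box.

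The ranks of the tRNA peaks were spread over each list. The best rank at a tRNA gene in the pooled list was 129 and the median over the 183 genes 13170, beside a median of 8565 over all genes with a summit. Of the 156 distinct pooled peaks, 14 lay among the first 5000 and 45 in the fullest bin of 5000, ranks 10001 to 15000. The fullest bin of replicate 3 was ranks 5001 to 10000, with 45 of 190 peaks, and that of replicate 2 ranks 20001 to 25000, with 22 of 92. In replicate 3 the median was 10146 and in replicate 2 it was 16060, beside 8683 and 8055 for all genes.

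The 19 thresholded peaks at tRNA genes ranged from leading peaks some way from the gene to peaks over it, with overlapping ranks. The strongest, rank 129 with a signal value of 1470 on the authors' scale, lay at chr3R:8669159-8669558. Its summit was 179 bp upstream of tRNA:Tyr-GTA-1-8 and 265 bp upstream of a TSS of the protein-coding gene CG8036, and it ranked 242 in replicate 2 and 66 in replicate 3. The tRNA gene itself lies in an intron, and 2 further tyrosine tRNA genes start within 1000 bp of it. The peak at tRNA:Leu-TAA-2-1, which lies alone between genes on 3R, ranked 1775 in the pooled list, 2990 in replicate 2 and 1351 in replicate 3, with its summit 184 bp upstream of the tRNA start and 391 bp upstream of CG13605. The peak at tRNA:Phe-GAA-1-2 on X had its summit 319 bp downstream of the tRNA start and 14 bp after a TSS of RpL17, a ribosomal protein gene. It ranked 1813, with 3030 in replicate 2 and 1290 in replicate 3.

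These leading peaks were listed high in both replicates. So were those at tRNA:Lys-CTT-1-2 (pooled rank 1923, replicate ranks 1424 and 3039, 470 bp upstream of the tRNA start) and tRNA:Gln-TTG-2-1 (pooled rank 2616, replicate ranks 2415 and 3016, 257 bp upstream). Those 2 peaks are the ones of the 19 with a better rank in replicate 2, and neither lies within 5000 bp of a protein-coding TSS. The peak at tRNA:Val-CAC-2-5, 465 bp downstream of the tRNA start and 434 bp from a TSS of Naam, ranked 2529 in replicate 2 and 2267 in replicate 3. At tRNA:His-GTG-1-3, whose summit lay 159 bp upstream of the tRNA and 91 bp upstream of CG8490, the ranks were 4933 and 991.

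Summits within 100 bp of a tRNA start belonged to 5 of the 19 thresholded peaks, and these had low ranks or none in replicate 2. The summit of the peak of pooled rank 6057 lay 13 bp upstream of tRNA:Glu-CTC-2-3 and 5703 bp from the nearest protein-coding TSS, and the matching peaks ranked 16935 in replicate 2 and 3355 in replicate 3. A single peak of rank 5700 served tRNA:Pro-TGG-1-2, tRNA:Ala-AGC-2-2 and tRNA:Ala-AGC-2-3, with its summit 49 bp upstream of the first, and ranked 16060 in replicate 2 and 3337 in replicate 3. The peak of rank 4154 had its summit at the first base of tRNA:Trp-CCA-2-2 and ranked 24584 in replicate 2. Within 200 bp of its summit the best replicate 3 peak ranked 1575 and also matches a second thresholded peak, 216 bp upstream of the same gene. The peaks at tRNA:Asp-GTC-1-5 (rank 3689, 85 bp after the start) and tRNA:Gln-TTG-1-3 (rank 5223, 83 bp after the start) had no replicate 2 peak within 200 bp, and ranked 2230 and 2691 in replicate 3.

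The 5 peaks over tRNA starts thus had replicate 3 ranks from 1575 to 3355, all leading, and 0 leading ranks in replicate 2. The other 14 peaks had replicate 2 ranks from 242 to 18392 with a median of 4345, of which 8 were leading, and replicate 3 ranks from 66 to 6946 with a median of 2872. The groups overlap in replicate 2 through tRNA:Ser-AGA-2-4, whose summit lay 103 bp after the start and whose peak ranked 18392 in replicate 2 and 3109 in replicate 3. These counts describe a handful of peaks and were not tested. Of all 19 peaks, 15 had the better rank in replicate 3.

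Protein-coding promoters lay near a larger share of the thresholded peaks than of the pooled peaks. Of the 19 thresholded peaks, 10 had their summit within 500 bp of a protein-coding TSS (52.6%). Of the 156 pooled peaks, which include those 19, 23 did so (14.7%). The direction was the same over all peaks of each list. Within 500 bp of a protein-coding gene start lay 1802 of all 6075 thresholded peaks and 5988 of all 30000 pooled peaks. The summit was nearer the tRNA start than any protein-coding TSS for 14 of 19 and for 148 of 156. Where a tRNA gene stood within 500 bp of a TSS, a thresholded summit was listed for 9 of 32 (28.1%, interval 15.6 to 45.4), and where it stood over 5000 bp away, for 4 of 110 (3.64%, interval 1.42 to 8.98). Other non-coding genes also had a lower share away from a TSS, 13.3% of 625 within 500 bp and 5.51% of 3304 beyond. Beyond 500 bp the tRNA share was 5.43%. At tRNA genes near a TSS, a peak of the tRNA gene and one of the promoter cannot be told apart.

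The pooled share depended little on that distance. It was 65.6% within 500 bp, 70.2% up to 1000 bp, 67.3% up to 5000 bp and 55.5% beyond 5000 bp (interval 46.1 to 64.4), with overlapping intervals. Replicate 3 listed 29 of 32 genes near a TSS (90.6%) and 74 of 110 beyond 5000 bp (67.3%), and replicate 2 listed 11 (34.4%) and 39 (35.5%). Of the 258 tRNA genes over 500 bp from a TSS, 40 had a leading summit in replicate 3 and 4 in replicate 2. Of 3304 other non-coding genes at that distance, 188 had one in replicate 3 and 176 in replicate 2. The gap between replicates at tRNA genes was thus also present away from promoters. By location, 65.4% of 156 intergenic tRNA genes and 59.1% of 127 in an intron of a protein-coding gene had a pooled summit. In the thresholded list these were 19 (12.2%) and 4 (3.15%).

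Clustered tRNA genes were listed more often than solitary ones. Starts no more than 5000 bp apart were joined into clusters, which gave 68 clusters with 214 genes and 76 genes alone. A pooled summit stood at 158 of the 214 clustered genes (73.8%) and at 25 of the 76 others (32.9%, interval 23.4 to 44.1). Replicate 3 listed 182 of 214 and 29 of 76 (38.2%), and replicate 2 listed 89 (41.6%) and 17 (22.4%), so the order held in both whole lists. Among the leading peaks it held in replicate 3 (44 of 214 and 8 of 76) and was the reverse in replicate 2 (6 of 214, 2.8%, and 4 of 76, 5.26%), and the thresholded shares were close, at 8.41% and 6.58%. The share was already high in pairs, at 73.7% of 76 genes, and was 54 of the 72 genes in clusters of 5 or more.

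A clustered gene can be counted through its neighbour's peak, which a window of 100 bp limits. With that window the pooled shares were 31.8% for clustered and 11.8% for solitary genes, beside 15.5% of all annotated genes. In replicate 3 they were 46.3% and 18.4%, beside 20.1%, and in replicate 2 they were 10.3% and 1.32%, beside 11.5%. Over 500 bp from any TSS, 141 of 188 clustered and 21 of 70 solitary genes had a pooled summit. Within 500 bp of a TSS the pooled shares were alike, 17 of 26 clustered (65.4%) and 4 of only 6 solitary genes (66.7%). There replicate 2 listed 8 clustered and 3 solitary genes, and replicate 3 listed 25 (96.2%) and 4 (66.7%). The split was also present among genes whose sequence occurs once, where 21 of 29 clustered genes (72.4%) and 5 of 23 solitary genes (21.7%) were listed. The share of solitary genes lay below the 40.9% of all annotated genes in the pooled list, but its interval includes that value. In replicate 3 the interval for solitary genes, 28.1 to 49.4, also includes the 45.5% of all genes. In replicate 2 it was 14.5 to 32.9, below the 37.6% of all genes.

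**Figure D4:**
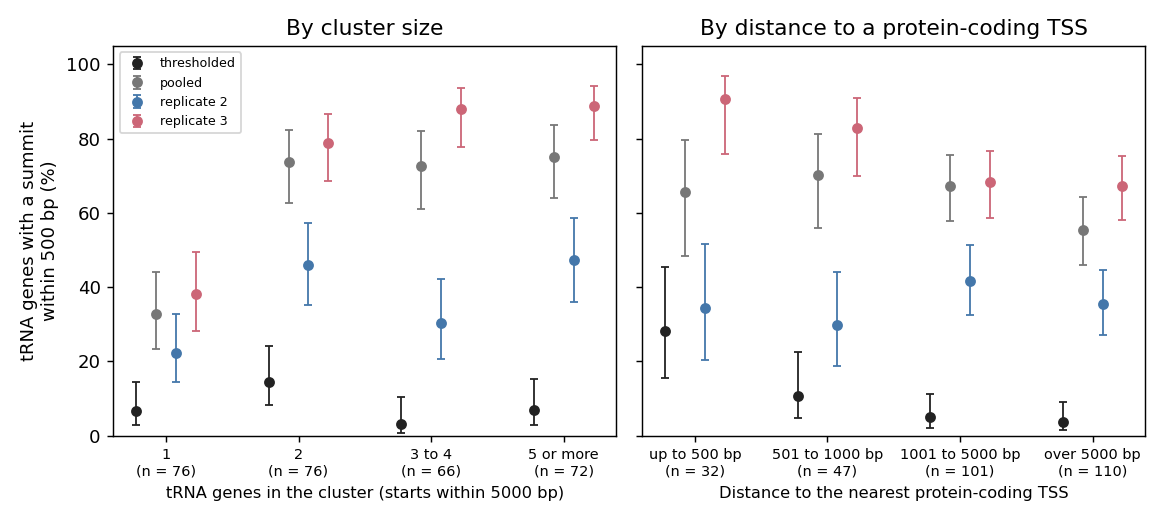
Percent of tRNA genes with a summit within 500 bp (y axis, points with Wilson 95% intervals) by the number of tRNA genes in the cluster (left) and by distance to the nearest protein-coding TSS (right), for 4 peak lists. Pooled shares rise from 32.9% for single genes to 73.7% for pairs, and thresholded shares fall from 28.1% within 500 bp of a TSS to 3.64% beyond 5000 bp.

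Within the largest cluster on 3R the lists can be followed gene by gene. It spans chr3R:17617761-17631750 and holds 11 genes, 4 for alanine, 3 for proline and 2 each for threonine and valine. Replicate 3 listed 10 of them, the pooled list 9, replicate 2 listed 7 and the thresholded list 3, through the single peak of rank 5700. Summits in replicate 3 lay 26 bp upstream of tRNA:Ala-AGC-2-4 (rank 12970), 23 bp upstream of tRNA:Thr-AGT-1-6 (rank 8821) and 16 bp upstream of tRNA:Pro-TGG-1-2 (rank 3337). The first of these 3 genes had no pooled summit, and neither it nor tRNA:Thr-AGT-1-6 had one in replicate 2. Only tRNA:Val-AAC-1-2 of the 11 had none in any list.

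The other large clusters varied. On 2R, the 11 genes from 6161535 to 6171759 (arginine, asparagine, isoleucine and lysine) had 10 pooled summits, 7 in replicate 2 and 11 in replicate 3. The 7 genes of 2R for glutamate and initiator methionine had 7 pooled, 4 in replicate 2 and 7 in replicate 3, and the 7 for isoleucine and leucine had 6, 5 and 7. Among these 5 largest clusters the lowest counts were in the one on X from 14014814 to 14017284, with 5 arginine and 2 serine genes, where 3 were listed in the pooled list, 2 in replicate 3 and 0 in replicate 2. Its first 3 genes share a pooled peak of rank 12239, and the last 4, all tRNA:Arg-TCG-3 copies, had no summit in any list. Arm X as a whole had a pooled summit at 10 of 24 tRNA genes (41.7%) beside 42.8% of all its genes, and 2R at 71 of 98 (72.4%) beside 40.2%.

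Across the amino acids the difference between the replicates had 1 direction. Of the 22 isotypes, 19 had more genes listed in replicate 3, 3 had equal counts and 0 had more in replicate 2. Threonine had 1 of 17 genes in replicate 2 and 12 in replicate 3, and cysteine 0 of 7 and 4. Equal counts came from tyrosine (6 of 10), isoleucine (9 of 11) and initiator methionine (4 of 6). Isotype shares in the pooled list ran from 0 of 1 for selenocysteine and 2 of 7 for cysteine to 15 of 17 for proline and 10 of 11 for isoleucine. With 1 to 26 genes per isotype, their intervals are wide (for proline 65.7 to 96.7, for cysteine 8.22 to 64.1).

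**Figure D5:**
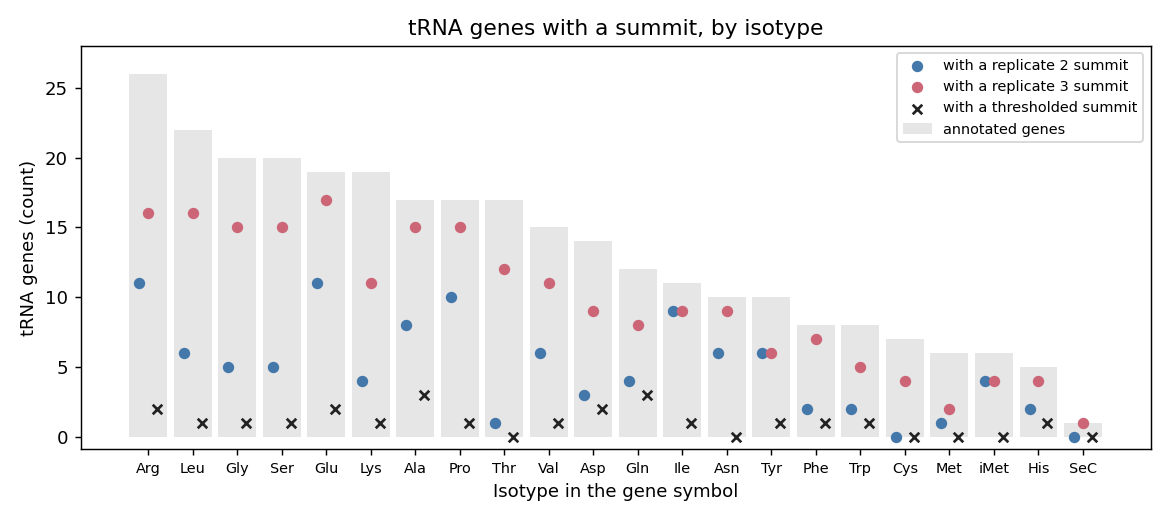
Number of tRNA genes per isotype (grey bars, y axis) and the numbers with a summit within 500 bp in replicate 2 (blue), replicate 3 (red) and the thresholded list (crosses), for 22 isotypes in order of size (x axis). The red point is at or above the blue point for all 22, with the widest gap of 11 genes for threonine (12 against 1).

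The selenocysteine gene tRNA:SeC-TCA-1-1, which reads UGA as selenocysteine, had a summit in replicate 3 alone, at rank 16050 and 74 bp upstream of its start. Thresholded summits covered 16 of the 22 isotypes, and asparagine, cysteine, both methionine isotypes, selenocysteine and threonine had none. Anticodons of 1 amino acid could differ: for lysine, 7 of 13 genes with anticodon CTT had a pooled summit and 0 of 6 with TTT. Replicate 3 listed 10 and 1 of them. The lone TTT gene, tRNA:Lys-TTT-2-1, had its summit 499 bp upstream, at the edge of the window. The lysine TTT genes tRNA:Lys-TTT-2-2 and tRNA:Lys-TTT-2-3 lie in duplicated sequence, in which under 50% of the 50 bp words within 250 bp of the start occur once in the genome, and reads there can match more than 1 place.

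Identical copies of a gene were listed unequally. Of 24 families with 5 or more identical copies, 180 genes in all, 22 had both listed and unlisted copies in the pooled list. With 63.1% of all tRNA genes listed, most families of 5 to 13 copies would be mixed if copies were listed independently. The count is therefore no result about the families. The 7 copies of tRNA:Pro-AGG-1 were all listed, at pooled ranks from 7912 to 28706, and the 5 of tRNA:Lys-TTT-2 were not. In 21 families replicate 3 listed more copies, in 1 (tRNA:Val-CAC-2, 4 and 3) replicate 2 did, and 2 had equal counts.

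The alanine family tRNA:Ala-AGC-2, whose flanks are printed above, has 11 copies of which 7 were listed in the pooled list, 5 in replicate 2 and 10 in replicate 3. Copy 2-2 shared the thresholded peak of rank 5700, with its summit 174 bp after the start. Copy 2-8 had a pooled rank of 9392, a replicate 2 rank of 16990 and a replicate 3 rank of 4995, with pooled and replicate 3 summits 55 and 54 bp after the start. Copy 2-10 was listed in replicate 3 alone, at rank 23250 and 9 bp upstream. Copy 2-9, in an intron 9119 bp from the nearest TSS, had no summit in any list. The 4 copies, chosen by their values, thus ran from a shared thresholded peak to no summit with 1 gene sequence. That thresholded summit lay past the end of copy 2-2 and nearest to its neighbour tRNA:Pro-TGG-1-2.

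The internal boxes were present in listed and unlisted genes alike. Matching was on the strand of the gene. The looser B box core occurred in 93.4% of tRNA genes, 92.9% with and 94.4% without a pooled summit, and in 1.63% of windows of 73 bp after protein-coding starts. For the looser A box core the shares were 88.3%, 87.4% and 89.7%, with 20.9% after protein-coding starts. The stricter core GTTCGANTC matched 38.6% of tRNA genes, 36.6% with and 42.1% without a pooled summit. For TGGNNNAG the shares were 57.6%, 57.9% and 57.0%. A run of TTTT within 30 bp after the gene was found in 95.5% of tRNA genes (18.7% for windows at the same distance from protein-coding starts) and TATA within 50 bp before it in 22.1% (26.9%). With and without a pooled summit, TTTT was found in 95.1% and 96.3% and TATA in 19.1% and 27.1%, and the differences were not tested. Each of these motifs is a letter match and not a measured site.

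Base composition and uniqueness also differed little between listed and unlisted genes. GC content averaged 58.1% ± 4.34 (SD, n = 290) in the gene and in the 100 bp before it 37.2% ± 7.78 (n = 183) with and 36.5% ± 7.75 (n = 107) without a pooled summit. Short windows around the 156 pooled summits at tRNA genes averaged 39.3% GC, beside 37.8% for all pooled peaks. The share of 50 bp words that occur once in the genome had a median of 93.4% at genes with a pooled summit and 93.8% at genes without. Under 50% were 5 genes, of which 0 had a pooled summit. A pooled summit stood at 9 of the 16 genes split by an intron (56.2%) and at 174 of the 274 others (63.5%). Replicate 2 listed 10 of the 16 (62.5%) and 96 of the others, and replicate 3 listed 9 (56.2%) and 202 (73.7%). By copy number, 157 of 238 genes with an identical copy had a pooled summit (66.0%, interval 59.7 to 71.7). Without a copy 26 of 52 did (interval 36.9 to 63.1), and the intervals overlap. In replicate 3 the shares were 76.9% with a copy (interval 71.1 to 81.8) and 53.8% without (40.5 to 66.7), which do not overlap. Replicate 2 ran the other way, at 35.7% with a copy and 40.4% without, with overlapping intervals. Among clustered genes the pooled shares with and without a copy were 74.1% of 185 and 72.4% of 29. Among solitary genes they were 37.7% of 53 and 21.7% of 23.

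Genes of the wider RNA polymerase III system were taken from lists of symbols. Among polymerase III transcripts whose promoters lie upstream of the gene, U6 small nuclear RNA, which acts in splicing, had a thresholded summit at 2 of 3 genes. The neighbours snRNA:U6:96Ab and snRNA:U6:96Ac share a peak of rank 3881, with 5233 in replicate 2 and 3142 in replicate 3. The gene snRNA:7SKa, whose RNA holds back the elongation factor P-TEFb, ranked 4595 in the pooled list, 12511 in replicate 2 and 2714 in replicate 3. Both 7SL genes, 96 genes for 5S ribosomal RNA and 4 annotated 5S pseudogenes had 0 summits in any list. The 5S genes form a tandem array of near-identical copies, and the 7SL genes lie among the lysine TTT genes in the duplicated stretch of 3R.

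Protein-coding genes of the polymerase III machinery had thresholded summits at 8 of 19 listed members (15.3% of all genes and 17.9% of protein-coding genes did) and pooled summits at 14 (40.9% and 44.7%). Bdp1 and Brf, both subunits of TFIIIB, had pooled ranks of 384 and 423. For Bdp1 the ranks were 273 in replicate 2 and 630 in replicate 3, and for Brf 295 and 775. Polr3E, a polymerase III subunit, ranked 381 in replicate 2 and 741 in replicate 3. These 3 promoters were among the leading peaks of both replicates and ranked better in replicate 2. The list as a whole was mixed: of 11 genes in both replicate lists, 7 ranked better in replicate 2 and 4 in replicate 3, and 3 more, the TFIIIB member Trf among them, were listed in replicate 3 alone and 1 in replicate 2 alone. A list of 19 genes is short, and the count was not tested.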

How the data were processed

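The deposited data are narrowPeak lists on dm6 for replicate 2, replicate 3, the pooled replicates and peaks past an IDR threshold, each called with a control alignment, per the file notes. Aligner, peak caller and IDR cutoff were not given in the sources used here. Each deposited signal value, whose scale is not stated, was used only for ranks, and the deposited −log10 q-value was only inspected. Summit offsets were used as deposited. All 6075 thresholded peaks occur in the pooled list. The lists carry no read totals, so depth is unknown.

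Genes were those of Ensembl release 115 on the RefSeq copy of genome Release 6. Gene starts, distances, clusters, motifs and Wilson 95% intervals were computed in Python 3.11.15 with numpy 2.4.6, pandas 2.3.3 and scipy 1.17.1, with code tested on simulated data. A peak was matched between lists by summits within 200 bp. Named were the best-ranked tRNA gene of each thresholded peak, the 10 best-ranked in each replicate, the 5 largest clusters, 5 genes each way by rank difference, isotypes without a pooled summit, and up to 4 members of each polymerase III list. Other genes named, including the printed copies, the looser cores and the uniqueness measure were chosen after values were seen. The members and all lists were chosen with earlier results of these data known. With a single group no p-value was computed. Alternatives changed the window, the overlap rule, the genes counted, the cluster distance, the list length and the replicate.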

Additional observations from a re-analysis of the deposited data

How the results depend on the processing

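For counts, 36 alternative values were computed, of which 20 stayed within 1.5 times the reported count and 16 did not. Another 6 values, for the median rank and the summit position, had only the SD of the same 2 replicates to be judged by, which is no check of stability. The 23 thresholded genes became 15 with a window of 250 bp, 44 with 1000 bp, 12 by overlap of peak and gene, 14 over 500 bp from a TSS and 9 with a stricter threshold that kept the leading peaks to a number 2 times smaller. Leaving out a replicate gave 10 to 52 thresholded genes, 5 to 21 thresholded clusters (12 reported) and 106 to 211 pooled genes, the lower value each time without replicate 3. The same step gave 41 to 62 clusters beside 59 pooled, and 6 to 12 genes within 500 bp of a TSS beside 9 thresholded. It gave median ranks of 10146 to 16060, and 21.7% to 53.6% of nearest summits within 100 bp beside 42.1% pooled. Counting 1 gene per distinct sequence gave 66 pooled, 51 in replicate 2 and 69 in replicate 3, by construction fewer. Replicate 2 fell from 106 genes to 64 at 250 bp and 58 by overlap. A class limit of 1000 bp gave 14 thresholded genes near a TSS, a wider class by construction. For the other changes the cause was not tested. Within 1000 bp, replicate 2 listed 54.1% of tRNA genes beside 47.7% of all genes, and replicate 3 79.0% beside 53.3%. No paired analysis was possible because there is a single group.

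Depth is unknown and there are 2 libraries, so neither replicate can be called the more reliable, and absence from a list of fixed length is not absence of binding. Identical copies limit reads that map to 1 place.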

Other observations

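Members near the edge of the window were few. In the pooled list 11 tRNA genes had their nearest summit in the outermost 100 bp of the window of 500 bp, and 8 had it in the next 100 bp outside. A further 20 genes had no pooled summit within 5000 bp.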
